A study of Arabidopsis thaliana with 41 samples.

Results

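The Aux/IAA and ARF genes of Arabidopsis thaliana encode the nuclear core of the auxin response. Their transcripts were followed by RNA-seq in developing embryos of 2 genotypes, val1 and wild type, at 7 ages. The 43 members, 29 Aux/IAA and 14 ARF genes, were taken by locus identifier out of 33544 genes in the deposited expression table. The val1 embryos carry a mutation in VAL1 (AT2G30470, also named HSI2), and the wild-type embryos carry no named mutation. The labels give no allele, accession background or further treatment for either genotype. Both genotypes were sampled at 7, 8, 10, 12, 13, 15 and 17 days old, with 3 libraries in each of the 14 groups except wild type at day 17, which had 2, so that 41 libraries were used. Embryos of both genotypes were dissected in parallel and washed to clear away endosperm, so each library is a mixture of all embryonic cell types. In such bulk samples, fewer cells that express a gene and less RNA per cell cannot be told apart. The series lists 3 biological and 4 technical replicates without saying which plants gave which library, so p-values measure the spread between these libraries.

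Auxin acts by bringing TIR1/AFB receptors and Aux/IAA proteins together, after which the Aux/IAA protein is destroyed. While present, an Aux/IAA protein binds an ARF transcription factor and recruits TOPLESS corepressors, which silences the ARF target genes. ARF5, ARF6, ARF7, ARF8 and ARF19 are known as transcriptional activators, and the other ARF members are held to be mainly repressors. Many Aux/IAA genes are themselves induced by auxin. In the early Arabidopsis embryo, ARF5 (MONOPTEROS) and its inhibitor IAA12 (BODENLOS) direct formation of the root pole. VAL1 encodes a B3-domain repressor that binds the RY motif and, with its relatives, silences the embryo programme in seedlings.

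VAL1 transcript, which checks the labels, averaged 1.41 ± 0.66 scaled FPKM in val1 embryos and 11.6 ± 1.6 in wild-type embryos at day 7 (SD, n = 3 each), and it was lower in val1 at all 7 ages. The size of that difference depended on age (adjusted p = 0.000325 for the interaction), the val1 mean being 12.2% of wild type at day 7, 32.1% at day 10 and 41.8% at day 17, when it was 2.48 in val1 and 5.94 in wild type. FPKM is the fragment count per kilobase of transcript at a common library total, here divided by a factor per library that aligns the bulk of genes. Estimated depth was 8321306 to 51738641 reads per library, median 29731894, and the lowest correlation between libraries of a group was 0.968. At least 5 of 7 embryo markers reached 1 FPKM in every group. LEC1 was listed at 0 in wild type at day 13. Both LEC1 and LEC2 were listed at 0 in val1 at day 15 and in both genotypes at day 17. On average 2 of the 7, LEC1 and the albumin gene SESA3, were higher in val1 and 0 lower, and for LEC1, SESA3, FUS3 and ABI3 the difference depended on age. SESA3 averaged 453.3 ± 157.8 in val1 and 61.1 ± 31.5 in wild type at day 7 (log2 difference 2.95, adjusted p = 1.59e-05). At day 17 FUS3 averaged 26.8 ± 5.1 in val1 (n = 3) and 9.11 ± 2.42 in wild type (n = 2; log2 difference 1.51, adjusted p = 1.83e-07), and ABI3 85.5 ± 12.6 in val1 and 54.0 ± 2.2 in wild type (log2 difference 0.65, adjusted p = 0.00275). The 7 embryo markers then summed to 214700 to 400900 in val1 and 130000 to 150600 in wild type, without overlap. Of 9 endosperm markers, FIS2, FWA, PHE1, AGL62, MINI3 and IKU2 never reached 1 FPKM in any library. SUC5, ALE1 and ZOU did, with highest values of 22.9, 9.72 and 6.38 FPKM. The 9 summed to 8.43 to 21.1 in val1 and 8.71 to 14.3 in wild type at day 7. After day 10 none of the 9 reached 1 FPKM in either genotype. The sum of the 7 seed coat markers was above all wild-type libraries in each val1 library at the 5 ages from day 10 on. It was 15.1 to 16.6 in val1 and 13.5 to 14.3 in wild type at day 10, at least 10.3 in val1 and at most 8.02 in wild type at day 13, and 1.80 to 2.78 in val1 and 1.11 to 1.22 in wild type at day 17. Most of the day 13 sum was MUM4, a mucilage gene, with 9.57 ± 2.04 in val1 and 4.47 ± 1.39 in wild type (log2 difference 1.03, adjusted p = 0.00136), while TT2 and TT16 were listed at 0 in both. On average over days, MUM4 alone of the 4 seed coat markers tested was higher in val1, and 0 were lower. The others, TT10, BAN and TTG2, had average log2 differences of 0.10, -0.04 and -0.03. The part of the embryo, endosperm and seed coat markers in the members' differences was not tested. Scaling moved the median difference of all genes by more than 0.1 on the log2 scale at day 17, where it was -0.24 without scaling and 0.00 with it.

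Of the 43 members, 38 passed the filter of at least 1 FPKM in at least 2 libraries. These were 24 of 29 Aux/IAA genes and all 14 ARF genes. The 5 others stayed low everywhere. IAA3 (SHY2) reached at most 0.258 scaled FPKM in any library, IAA5 0.192, IAA14 (SOLITARY-ROOT) 0.178 and IAA29 0.0650, and IAA6 (SHY1) was listed at 0 in every library. Averaged over all libraries, IAA8 was the most abundant member at 190.7 scaled FPKM, ahead of IAA9 at 66.2, ARF1 at 42.5, IAA12 at 31.2 and IAA30 at 29.9. The lowest tested members were IAA31 at 0.309 and IAA19 at 0.305. FPKM is a value per length, so these levels can be set beside each other.

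IAA17 (AXR3, AT1G04250) was the member with the largest average difference between the genotypes. It encodes a canonical Aux/IAA repressor, known from the axr3 mutants in which a stabilised protein makes plants resistant to auxin. The gene lies on the plus strand of chromosome 1, chr1:1136078-1138663 in TAIR10.1, and was represented by a single assembled transcript that matched the reference. The RY motif that B3 factors bind was searched as CATGCA on both strands. IAA17 held no match within 1000 bases before its start and 4 within its 2586 bases. Of 7078 genes within 500 bases of its length, 53.9% held at least 1 match and 4.15% at least 4. The 4 stretches of 30 bases are shown because they are the places in this gene that carry the letters VAL1 is known to bind, with the motif in capitals. They lie on the plus strand at chr1:1136230-1136259 in the 5′ UTR, chr1:1136828-1136857 and chr1:1137179-1137208 in introns, and chr1:1137742-1137771 in a coding exon. A match is a description of the sequence and not evidence of binding.
IAA17 5′ UTR: atacgacatacaCATGCAgctacctcctag
IAA17 first intron match: aacccatagtctCATGCAagtaaaatttat
IAA17 second intron match: tgtagatccttcCATGCAcatttagttact
IAA17 coding exon: tgttcgtcgataCATGCAagcgtttacgtc

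IAA17 was higher in val1 on all 7 days, the only member with that record and among 58 such genes of 18389 tested. At day 7 its level was 17.8, 25.1 and 16.7 scaled FPKM in the val1 libraries, against 6.42, 8.79 and 5.89 in the wild-type libraries. At day 8 it was 22.2, 29.4 and 28.8 in val1, against 5.99, 10.1 and 6.35 in wild type. At day 10 it was 49.0, 50.6 and 49.0 in val1, against 9.43, 8.71 and 10.1 in wild type. No val1 library overlapped a wild-type library at these ages, and the lowest val1 value was above the highest wild-type value each time. At day 12 the val1 libraries gave 44.3, 54.9 and 53.7 and the wild-type libraries 3.57, 4.73 and 7.21. At day 13 they gave 43.1, 45.6 and 57.5 in val1 and 0.990, 0.527 and 1.84 in wild type. The groups did not overlap at these ages either, and the wild-type libraries were lower at day 13 than at day 12. At day 15 the val1 libraries still held 26.1, 13.2 and 28.2, while 2 wild-type libraries were listed at 0 and the third held 0.0360. At day 17 the val1 libraries held 6.10, 1.79 and 7.63, and both wild-type libraries were listed at 0.

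**Figure D1:**
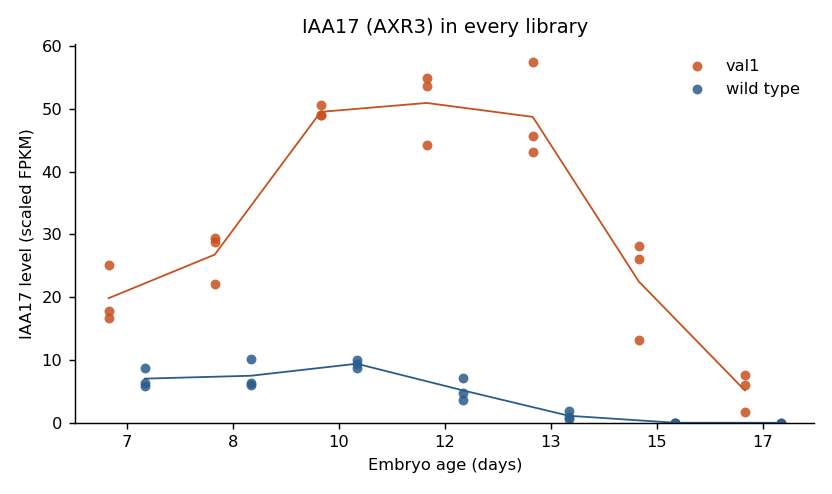
IAA17 level in each library (points, scaled FPKM) by embryo age in days, with lines through the group means, val1 left of wild type at each age; ages are drawn at equal spacing. The val1 means peak at 50.9 ± 5.8 at day 12 and the wild-type means at 9.41 ± 0.68 at day 10 (SD, n = 3 each).

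The mean level of IAA17 in val1 was 2.82-fold that of wild type at day 7, 3.58-fold at day 8, 5.27-fold at day 10, 9.86-fold at day 12 and 43.6-fold at day 13. On the log2(scaled FPKM + 0.5) scale used for all tests, the differences by day, val1 minus wild type, were 1.43, 1.80, 2.34, 3.23, 5.00, 5.42 and 3.31, with standard errors (SE) of 0.32 and, at day 17, 0.36. Adjusted p ran from 0.00551 at day 7 to 1.69e-14 at day 15 (limma, Benjamini-Hochberg over all genes). The average over days was 3.22 (SE 0.12, adjusted p = 2.43e-20). Because wild type was at or near 0 at day 15, the size there depended on the pseudocount, with 7.6 at 0.1 and 4.47 at 1. The size of the IAA17 difference depended on age (adjusted p = 5.85e-08 for the interaction of genotype and day). From day 7 to day 12, IAA17 changed by 1.35 in val1 (SE 0.32, adjusted p = 0.000351) and by -0.44 in wild type (SE 0.32, adjusted p = 0.212), a difference of 1.80 (SE 0.45, adjusted p = 0.0248). That call was lost when any of 7 libraries was left out, with differences of 1.58 to 1.76 and adjusted p of 0.0505 to 0.0940. These were val1 day 7 replicates 1 and 3, wild-type day 7 replicate 2, val1 day 12 replicate 3 and its unnumbered library, and wild-type day 12 replicates 1 and 3.

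Of the genes beside IAA17, IAA3 (AT1G04240) lies next to it, averaged 0.0436 scaled FPKM in val1 and 0.0748 in wild type and was too low to be tested. AT1G04260, the nearest tested gene after it, differed by -0.20 on average (SE 0.07, adjusted p = 0.0283) and on no single day. The 4 other loci among the 3 on either side of IAA17 are long noncoding RNAs and were not analysed here. In the tandem pair IAA1 and IAA14, IAA14 was under the filter. In the pair IAA2 and IAA7, IAA2 was lower and IAA7 higher in val1 on average. The IAA7 average was not called in the 34 numbered libraries, without val1 at day 17 (0.28, adjusted p = 0.148).

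Across the 38 tested members, the number called in val1 at an adjusted p under 0.05 was larger from day 10 on than at days 7 and 8. At day 7, 1 member was higher and 0 lower, where 3.31% of all genes were called (1.86% higher and 1.45% lower). At day 8, 1 was higher and 1 lower, where 3.38% of all genes were called (2.14% higher and 1.25% lower). At day 10, 2 were higher and 3 lower, where 5.42% of all genes were called (3.48% higher and 1.94% lower). Members called lower outnumbered those called higher at days 10, 12 and 13, but not in the second deposited quantification, which had 2 higher and 0 lower at day 10, 3 higher and 2 lower at day 12 and 5 higher and 4 lower at day 13. At day 12, 2 were higher and 6 lower, where 8.52% of all genes were called (5.42% higher and 3.10% lower). At day 13, 5 were higher and 6 lower, where 17.7% of all genes were called (10.7% higher and 6.97% lower). Higher members were the more numerous at the last 2 ages. At day 15, 7 were higher and 5 lower, where 17.5% of all genes were called (11.6% higher and 5.98% lower). At day 17, when FUS3, ABI3 and the summed embryo markers were also higher in val1, 8 were higher and 2 lower, where 15.3% of all genes were called (9.49% higher and 5.78% lower). As shares of the 38, these counts were 2.63% at day 7, 5.26% at day 8, 13.2% at day 10, 21.1% at day 12, 28.9% at day 13, 31.6% at day 15 and 26.3% at day 17. At days 7 and 8 the counts of 1 and 2 members were near the share of all genes.

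On average over days, 9 members were higher and 6 lower, 39.5% of those tested, where 32.0% of all genes were called (19.0% higher and 13.1% lower). The median log2 difference of the members was 0.03, against 0.02 over all genes. By class, 11 of 18 canonical Aux/IAA genes, 2 of 6 noncanonical ones and 2 of 14 ARF genes were called on average. Without scaling of the libraries, day 7 had 1 higher and 1 lower, day 8 had 1 higher and 2 lower, day 10 had 2 higher and 1 lower, and the average had 7 higher and 7 lower. In the 34 libraries with a replicate number, which hold no val1 library of day 17, the average had 6 higher and 8 lower. In the main fit, which does not pair same-numbered libraries, 18 members were called on at least 1 day and 20 on none. The 20 were 9 Aux/IAA and 11 ARF genes. The share of all genes called on at least 1 day was not counted, so these counts cannot be judged against it. With same-numbered libraries paired within each day, a setting chosen after seeing the data, day 15 had 15 higher and 7 lower, where 28.7% of all genes were called.

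**Figure D2:**
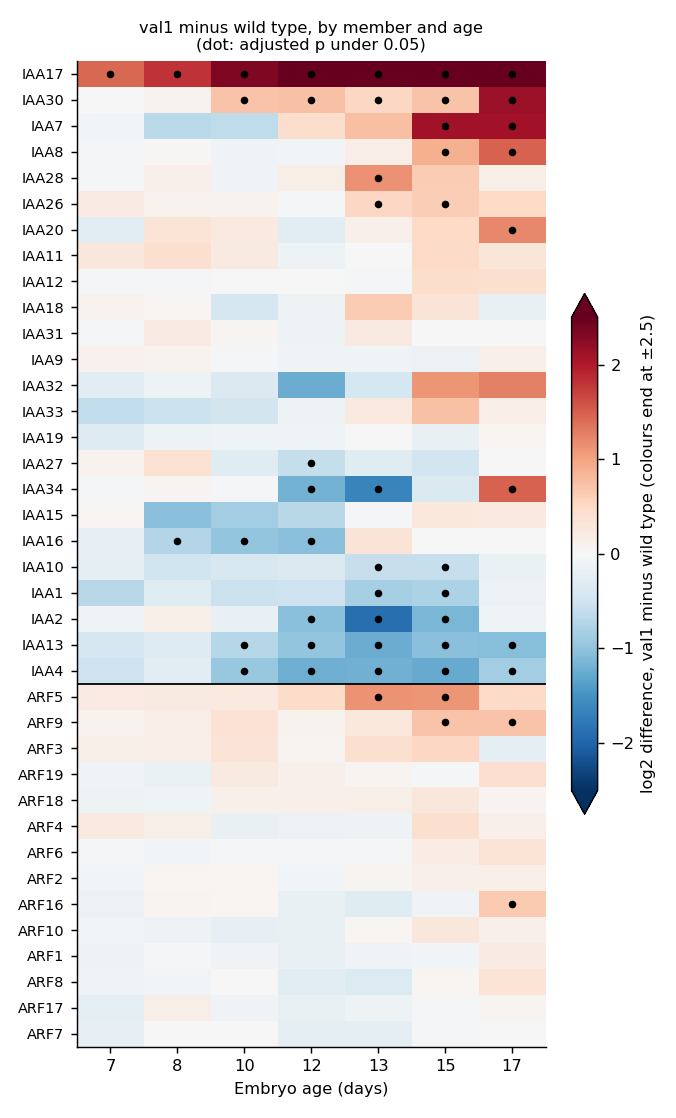
Log2 difference, val1 minus wild type, for the 38 tested members (rows, Aux/IAA above the line and ARF below, each ordered by their average) at each embryo age in days (columns), where red is higher and blue lower in val1, colours end at 2.5 in size, and dots mark adjusted p under 0.05. IAA17 has dots on all 7 days, and IAA4 and IAA13 are lower from day 10 to day 17.

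The lower canonical members were IAA2, IAA4, IAA13, IAA16, IAA1, IAA10 and IAA27, all repressors with the degron through which auxin acts. IAA1, IAA2 and IAA4 are close relatives of each other and of IAA3. IAA2 (AT3G23030) stood at 0.786, 1.26 and 0.897 scaled FPKM in the val1 libraries, against 3.27, 8.11 and 4.37 in the wild-type libraries at day 13. All val1 libraries were below all wild-type libraries, and val1 differed from wild type by -1.88 in log2 (SE 0.21, adjusted p = 2.31e-08). IAA2 was also lower at days 12 and 15, but not at day 17, when val1 held 11.9 ± 1.6 (n = 3) and wild type 13.1 ± 4.4 (n = 2). Its mean was 18.7% of wild type at day 13 and by day 17 had come to 90.6% of it. On the sampled days on either side of day 13 it was lower in val1 too, with means of 0.695 in val1 and 1.95 in wild type at day 12, then 6.55 in val1 and 15.0 in wild type at day 15. IAA4 (AT5G43700) had 3.10, 3.12 and 3.92 in val1, against 8.12, 7.64 and 10.8 in wild type at day 15, with no overlap and -1.26 between them in log2 (SE 0.21, adjusted p = 4.81e-05). In the second deposited quantification that difference was -1.22 (adjusted p = 0.166). It was lower on the 5 days from 10 to 17, and its val1 mean was 38.1 to 47.1% of wild type on those days.

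IAA13 (AT2G33310), whose stabilised form is known to block embryonic root formation in Arabidopsis, was lower on the same 5 days. Its values at day 13 were 5.10, 4.51 and 4.25 in val1, against 9.61, 17.0 and 9.30 in wild type, which differ by -1.23 in log2 (SE 0.20, adjusted p = 3.03e-05). The groups did not overlap, and the gap held at day 17 with 26.0 ± 5.0 in val1 (n = 3) and 54.3 ± 9.0 in wild type (n = 2, adjusted p = 0.00108). Its close relative IAA12 was called on no day and had 37.4 ± 3.0 in val1 and 37.0 ± 2.2 in wild type at day 12. The annotation places AT2G33300 on the other strand over 1176 bases of IAA13, and that gene was listed at 0 in every library. IAA16 (AT3G04730), a relative of IAA7, IAA14 and IAA17, was lower at days 8, 10 and 12. At day 12 it held 0.622, 1.04 and 0.637 in val1, against 2.39, 1.52 and 2.5 in wild type (log2 difference -1.05, SE 0.19, adjusted p = 0.000170), and the second deposited quantification gave -1.47 (adjusted p = 0.0787). Its groups did not overlap at day 12, and by day 17 it was listed at 0 in all libraries of both genotypes.

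Smaller differences were found in the other 3 of these members. IAA1 was lower at days 13 and 15, with 0.689 ± 0.082 in val1 and 1.60 ± 0.09 in wild type at day 13. Its average log2 difference was -0.55 (SE 0.09, adjusted p = 5.06e-06). IAA10 was lower on the same days, with an average difference of -0.41 (SE 0.06, adjusted p = 2.86e-06). Its sum includes assembled transcripts of 3298 and 3312 bases beside the reference form of 1254, and AT1G04105 lies over 619 of its bases on the other strand, so reads of the pair may be mixed if strand was not kept. IAA27 was lower at day 12 alone, with 2.07 ± 0.13 in val1 and 3.38 ± 0.44 in wild type (log2 difference -0.59, SE 0.19, adjusted p = 0.0425).

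The other higher canonical members were IAA7, IAA8, IAA26 and IAA28, which were called at day 13 or later and on no earlier day. IAA7 (AXR2, AT3G23050) is a close relative of IAA17. At day 17 it held 1.52, 1.41 and 2.10 scaled FPKM in val1 while both wild-type libraries were listed at 0, and at day 15 it held 2.96 ± 0.51 in val1 and 0.355 ± 0.369 in wild type. The log2 difference was 2.10 (SE 0.29, adjusted p = 2.80e-06) at day 15 and 2.11 (SE 0.33, adjusted p = 1.77e-05) at day 17. The day 17 size depended on the pseudocount, with 4.13 at 0.1 and 1.41 at 1. Up to day 13 the genotypes did not pass the test for IAA7, and at day 10 its mean was 1.69 in val1 and 2.84 in wild type. In the second deposited quantification the day 17 difference of IAA7 was 0.35 (adjusted p = 1.00).

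IAA8 (AT2G22670), the most abundant member, was not called up to day 13 and was higher at days 15 and 17. At day 17 it held 37.5, 23.2 and 40.6 in val1, against 8.74 and 15.2 in wild type, with no overlap and 1.47 between them in log2 (SE 0.24, adjusted p = 2.94e-05). At day 15 it held 88.3 ± 25.4 in val1 and 47.2 ± 13.5 in wild type (adjusted p = 0.00286). Its relative IAA9 was called on no day. IAA28 (AT5G25890), known for a role in lateral root initiation, held 3.27, 3.43 and 3.39 in val1, against 0.876, 0.893 and 2.27 in wild type at day 13. Those groups did not overlap, and the log2 difference was 1.15 (SE 0.26, adjusted p = 0.00207), but with a pseudocount of 0.1 the adjusted p was 0.0561. IAA26 was higher at days 13 and 15, with 2.94 ± 0.18 in val1 and 1.73 ± 0.07 in wild type at day 15 (log2 difference 0.62, SE 0.17, adjusted p = 0.0107).

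Canonical and noncanonical Aux/IAA proteins differ in the degron, the short stretch that the receptor recognises. The core of the degron was searched in the TAIR10.1 coding sequences by its residues Gly-Trp-Pro-Pro. They were found in 23 of 29 Aux/IAA genes and not in IAA20, IAA30, IAA31, IAA32, IAA33 or IAA34. The fifth residue of the core was not part of the search and differs between members. The codons are shown for 3 members that were higher and 3 that were lower in val1 because both kinds carry a core. Each line runs 5′ to 3′ along the coding strand, and capitals mark the 15 bases that code for Gly-Trp-Pro-Pro and the next residue.
IAA17 degron codons: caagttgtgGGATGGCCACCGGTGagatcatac
IAA7 degron codons: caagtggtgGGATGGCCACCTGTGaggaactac
IAA8 degron codons: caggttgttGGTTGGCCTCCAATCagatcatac
IAA2 degron codons: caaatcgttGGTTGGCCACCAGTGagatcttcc
IAA4 degron codons: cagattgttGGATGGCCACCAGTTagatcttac
IAA13 degron codons: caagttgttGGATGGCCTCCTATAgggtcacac

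Among the 6 noncanonical members, IAA30, IAA20 and IAA34 were called on at least 1 day and IAA31, IAA32 and IAA33 on none. IAA30 (AT3G62100) is known in Arabidopsis as a target of the embryo regulators LEC2 and AGL15.

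IAA30 did not differ at days 7 and 8 by this test and was higher in val1 on the 5 days from 10 to 17. At day 10 it held 13.5, 17.4 and 13.6 scaled FPKM in val1, against 7.53, 10.2 and 8.67 in wild type. At day 15 it held 92.3, 83.2 and 91.7 in val1, against 51.9, 54.5 and 55.7 in wild type. At day 17 it held 83.8, 65.2 and 94.1 in val1, against 19.2 and 16.2 in wild type. The val1 libraries lay above all wild-type libraries at these 3 ages, and wild type dropped after day 15 while val1 stayed near its peak. The mean was 1.69-fold that of wild type at day 10 and 4.58-fold at day 17, with log2 differences of 0.72 (SE 0.16, adjusted p = 0.00317) and 2.15 (SE 0.18, adjusted p = 1.31e-10). At day 13 the groups overlapped, with 39.6, 53.4 and 36.8 in val1 and 26.7, 40.5 and 23.7 in wild type (log2 difference 0.53, SE 0.16, adjusted p = 0.0202).

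The difference in IAA34 (AT1G15050) changed sign with age. The transcript was nearly absent to day 10, then held 7.45, 9.56 and 4.42 in val1, against 24.5, 31.8 and 14.8 in wild type at day 13, which is -1.66 in log2 (SE 0.34, adjusted p = 0.000533). At day 17 it held 44.9, 24.6 and 51.9 in val1, against 10.1 and 18.3 in wild type, which is 1.47 in log2 (SE 0.38, adjusted p = 0.00602). The groups did not overlap at either age, in opposite orders, and at day 15 the difference of -0.37 did not pass the test (adjusted p = 0.530). AT1G15060 overlaps IAA34 by 156 bases on the same strand and differed by -0.45 at day 13 (adjusted p = 0.0179) and 0.07 at day 17 (adjusted p = 0.885), so some reads of the pair may be shared. IAA20 (AT2G46990) was higher at day 17 alone, with 1.10, 0.494 and 0.949 in val1, against 0 and 0.166 in wild type (log2 difference 1.19, SE 0.23, adjusted p = 0.000280). Its size depended on the pseudocount, with 2.48 at 0.1 and 0.76 at 1, and in the second deposited quantification it was 0.45 (adjusted p = 0.730). IAA32, the relative of IAA34, was called on no day. At day 15 it spread widely within groups, with 28.0 ± 20.8 in val1 and 11.9 ± 10.2 in wild type. At day 12 its means were 22.3 in val1 and 52.2 in wild type. The log2 difference there was -1.23 (SE 0.54, from the spread within groups at all ages, adjusted p = 0.179).

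Among the 14 ARF genes tested, ARF5, ARF9 and ARF16 were called on at least 1 day, all higher in val1. ARF5 (AT1G19850), an activator, held 2.35, 1.90 and 2.20 scaled FPKM in val1, against 0.881, 0.250 and 1.24 in wild type at day 13. The groups did not overlap, and the log2 difference was 1.12 (SE 0.20, adjusted p = 8.60e-05). At day 15 it held 1.04 ± 0.13 in val1 and 0.229 ± 0.143 in wild type (log2 difference 1.10, SE 0.20, adjusted p = 0.000128), and its average over days was 0.55 (SE 0.08, adjusted p = 6.66e-07). Levels of ARF5 were highest at day 7, with 25.9, 21.3 and 34.1 in val1, against 20.8, 21.9 and 26.4 in wild type, where the groups overlapped and the difference did not pass the test (adjusted p = 0.841). In the second deposited quantification ARF5 was listed at 0 in every library from day 12 on, so its day 13 difference there was 0.00.

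ARF9 (AT4G23980), held to be a repressor, had 5.94, 5.75 and 6.14 in val1, against 3.72, 2.89 and 3.68 in wild type at day 15 (log2 difference 0.72, SE 0.12, adjusted p = 6.39e-05). It was also higher at day 17 (log2 difference 0.71, SE 0.14, adjusted p = 0.000363), and the groups overlapped at neither age. ARF16 (AT4G30080), which with ARF10 is known to maintain ABI3 expression in seed dormancy in Arabidopsis, held 8.61, 6.82 and 6.92 in val1, against 4.97 and 4.10 in wild type at day 17 (log2 difference 0.66, SE 0.14, adjusted p = 0.000985). Again the groups did not overlap. ARF10 itself had 4.26 ± 0.36 in val1 and 3.47 ± 0.83 in wild type at day 15 and was called on no day. ARF1 and ARF2, the most abundant ARF transcripts, were also called on no day.

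**Figure D3:**
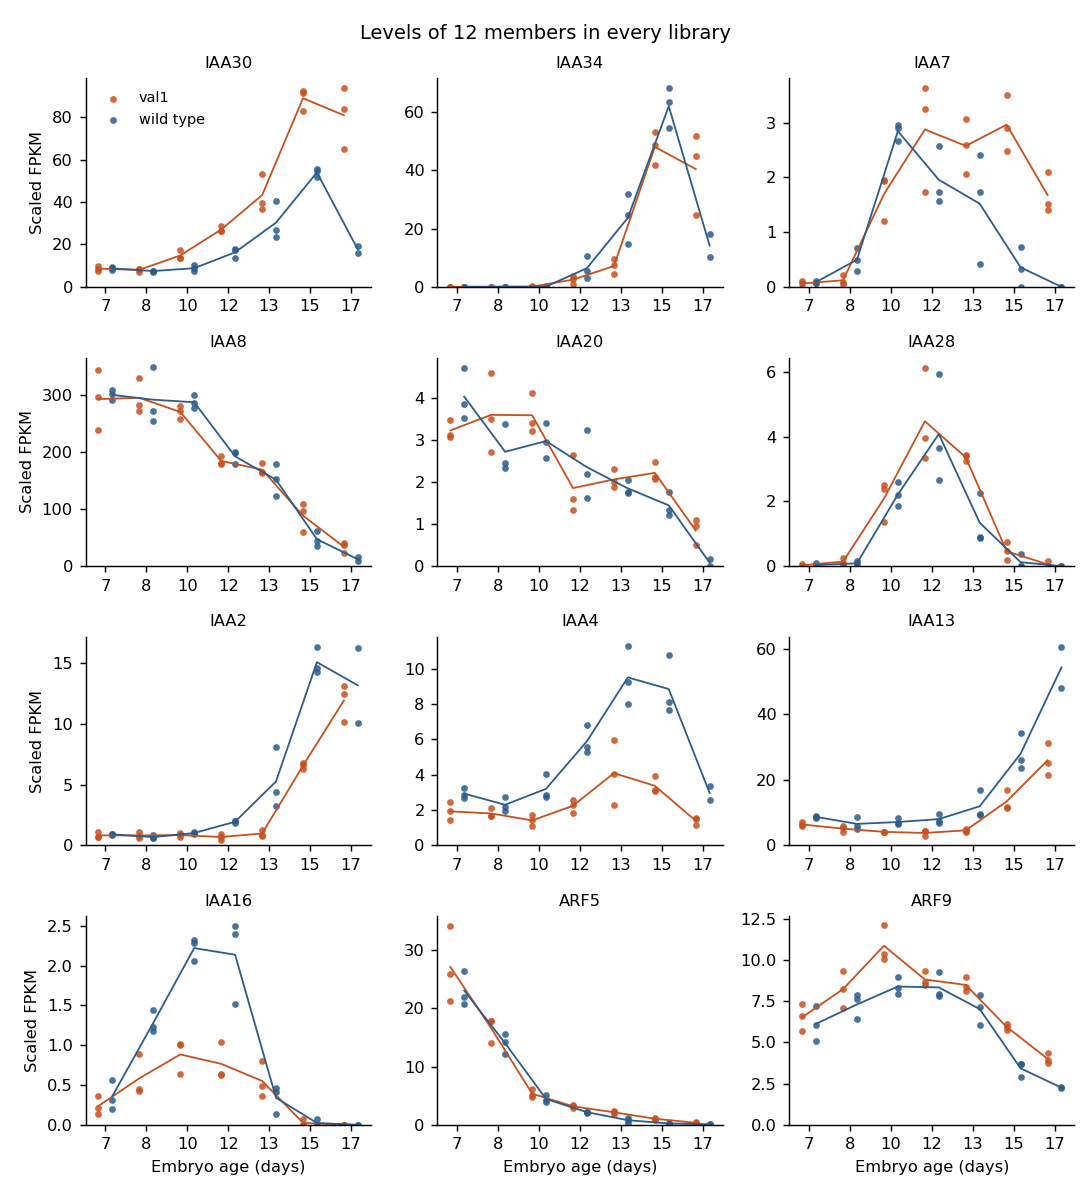
Levels of 12 members in each library (points, scaled FPKM) by embryo age in days, with lines through the group means, val1 left of wild type; ages are drawn at equal spacing and each panel has its own scale. At day 17 the val1 libraries of IAA30 lie between 65.2 and 94.1 and the wild-type libraries at 19.2 and 16.2, while those of IAA13 lie lower in val1.

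Through day 13 the mean summed Aux/IAA level of the 2 genotypes differed by less than the larger SD of the pair at each age, while single members took other shares of it. The sum was 443.7 ± 8.1 scaled FPKM in val1 and 448.4 ± 19.9 in wild type at day 12, and 277.8 ± 42.7 in val1 (n = 3) and 180.7 ± 0.4 in wild type (n = 2) at day 17. At day 17 the val1 libraries summed to 230.3 to 312.9 and the wild-type libraries to 180.4 and 181.0. IAA17 made up 11.5% of the sum in val1 and 1.15% in wild type at day 12. IAA8 led the pool in both genotypes through day 13, with 61.3% in val1 and 63.8% in wild type at day 7. At day 17 the leading member was IAA30 in val1, with 29.1% against 9.79% in wild type. In wild type it was IAA13, with 9.68% in val1 against 30.1% in wild type. The summed ARF level was 150.5 ± 31.9 in val1 and 149.2 ± 27.1 in wild type at day 7 and 146.7 ± 1.1 in val1 (n = 3) and 125.2 ± 9.1 in wild type (n = 2) at day 17. ARF1 led it at every age, with 46.9% in val1 and 47.4% in wild type at day 17.

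**Figure D4:**
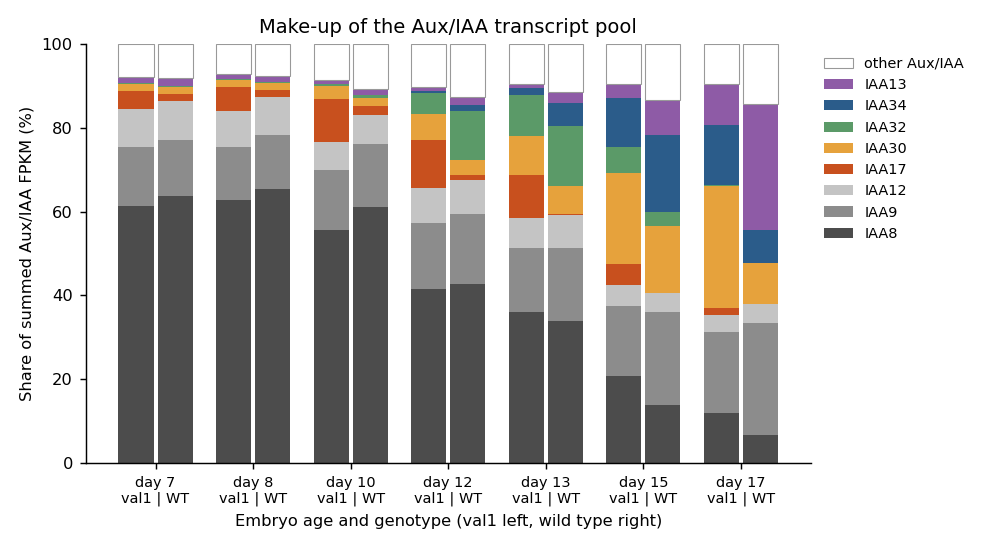
Share (%) of the summed Aux/IAA scaled FPKM held by 8 members and by the rest, as the mean over libraries, for val1 (left bar) and wild type (right bar) at each embryo age. At day 10 IAA17 takes 10.2% in val1 and 2.01% in wild type, and the largest share at day 17 is IAA30 in val1 and IAA13 in wild type.

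The families also changed with age. From day 7 to day 12, 20 members rose and 9 fell in val1, and 23 rose and 8 fell in wild type, where 74.4% of all genes were called in val1 (36.3% higher and 38.1% lower) and 74.7% in wild type (35.7% higher and 39.0% lower). These directions depended on the scaling. Without it, the median of all genes moved by -0.99 in val1 and -1.07 in wild type, and 6 members rose and 21 fell in each genotype. In wild type the largest rises among Aux/IAA genes were those of IAA32, by 5.16 (SE 0.54), IAA34, by 3.58 (SE 0.34), and IAA15, by 3.05 (SE 0.31). IAA32 stood at 22.3 ± 5.6 in val1 and 52.2 ± 5.1 in wild type at day 12, and at 0.738 ± 0.236 in val1 and 0.997 ± 0.371 in wild type at day 7. The largest falls in wild type were changes of -1.31 in IAA19 (MSG2, SE 0.18), -1.11 in IAA18 (SE 0.23) and -1.09 in IAA27 (SE 0.19). The sizes for low members depended on the pseudocount. At 0.1 and at 1 the rise of IAA34 was 5.62 and 2.73 and that of IAA15 5.03 and 2.24, and the change of IAA19 was -2.38 and -0.87. AT2G01210 lies over 826 bases of IAA32 on the other strand, averaged 11.6 in val1 and 12.8 in wild type and differed by 0.83 at day 13 (adjusted p = 0.0437), so reads of the pair may be mixed if strand was not kept. Among ARF genes, ARF4 rose by 1.33 (SE 0.18), ARF16 by 0.96 (SE 0.12) and ARF10 by 0.95 (SE 0.16). Without scaling these 3 changes were 0.12, -0.20 and -0.19 and did not pass the test. ARF5 had the largest fall, with a change of -3.13 (SE 0.20), followed by ARF3 (ETTIN) with -1.19 (SE 0.27). ARF5 and ARF3 were the 2 ARF genes called lower in that interval.

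From day 12 to day 17, 7 members rose and 25 fell in val1, and 5 rose and 27 fell in wild type, where 74.7% of all genes were called in val1 (33.4% higher and 41.3% lower) and 73.0% in wild type (33.7% higher and 39.3% lower). In wild type the rises were led by IAA13, by 2.69 (SE 0.23), IAA2, by 2.44 (SE 0.23), and IAA34, by 1.18 (SE 0.38). The IAA34 rise lost its call without wild-type day 12 replicate 3 (0.80, adjusted p = 0.0641) or day 17 replicate 2 (0.77, adjusted p = 0.149). ARF1 was the only ARF gene that rose in wild type, by 0.50 (SE 0.12). The falls were led by IAA32 with -6.52 (SE 0.60), IAA8 with -4.00 (SE 0.24) and IAA17 with -3.45 (SE 0.36). Among ARF genes they were led by ARF3 with -3.18 (SE 0.30), ARF5 with -2.15 (SE 0.22) and ARF4 with -1.72 (SE 0.20). All of these changes passed the test with every library in. At pseudocounts 0.1 and 1 the change of IAA17 was -5.66 and -2.58 and that of ARF5 -3.52 and -1.53. Wild-type means at day 17 were 0.0711 for IAA32 and 0.272 for ARF3, under the pseudocount of 0.5. The sizes of these falls, and their order, thus depend on the pseudocount too. In val1 the same members changed by 2.62 (IAA13), 3.39 (IAA2), 3.83 (IAA34), 0.89 (ARF1), -4.03 (IAA32), -2.47 (IAA8), -3.37 (IAA17), -3.46 (ARF3), -2.14 (ARF5) and -1.45 (ARF4).

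The change from day 12 to day 17 differed between the genotypes for 10 members, 26.3% of those tested where 10.9% of all genes were called. In all 10 the change was more positive in val1, whereas among all genes 5.81% were called more positive and 5.12% more negative. Of them, IAA7, IAA8, IAA20, IAA30, IAA34, ARF9 and ARF16 were called higher in val1 at day 17. IAA2 and IAA16 instead were lower in val1 at day 12, each by -1.05. At day 17 the IAA2 difference was -0.11, and IAA16 was listed at 0 in both genotypes. They were IAA34, with a difference of 2.65 (SE 0.51, adjusted p = 0.000657), IAA32, IAA7, IAA8, IAA20, IAA30, IAA16, IAA2, ARF16 and ARF9. IAA30 rose by 1.55 in val1 (SE 0.16) and changed by 0.12 in wild type (SE 0.18), a difference of 1.43 (SE 0.24, adjusted p = 0.000153). IAA8 changed by -2.47 in val1 (SE 0.21) and by -4.00 in wild type (SE 0.24), a difference of 1.53 (SE 0.32, adjusted p = 0.00153). Without scaling the median of all genes moved by -0.29 in this comparison and 3 members were called, and without wild-type day 17 replicate 2, 6 were. In the second deposited quantification 3 were called, and the differences of IAA7 (-1.55) and ARF9 (-1.26) had the opposite sign without passing the test. From day 7 to day 12, IAA17 was the only member whose change differed, 2.63% of those tested, where 2.06% of all genes were called (1.34% more positive in val1 and 0.718% more negative). The interaction over all 7 ages called 11 members, 28.9% of those tested against 16.7% of all genes: IAA2, IAA7, IAA8, IAA16, IAA17, IAA20, IAA30, IAA34, ARF5, ARF9 and ARF16.

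**Figure D5:**
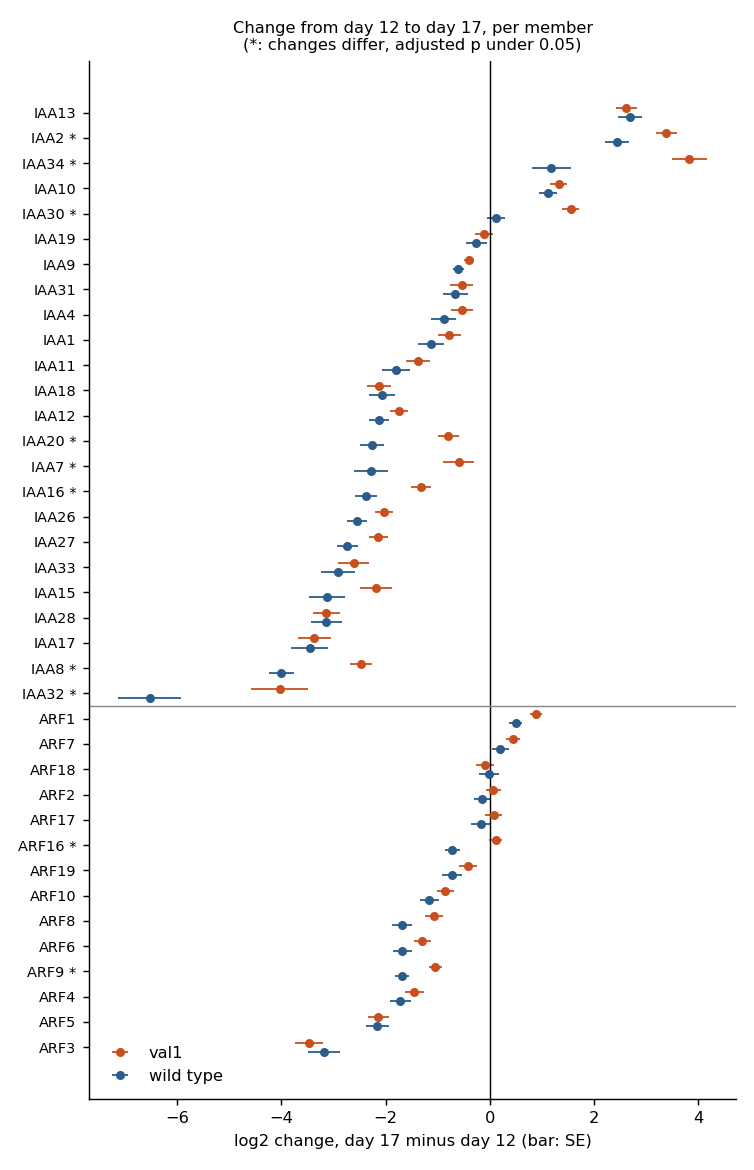
Log2 change from day 12 to day 17 for each tested member (rows) with its SE (bars), val1 above wild type, Aux/IAA above the line and ARF below, ordered by the wild-type change. Stars mark the 10 members whose changes differed between genotypes, and for each of them the val1 point lies to the right of the wild-type point.

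The steps around the Aux/IAA and ARF proteins were covered by lists of other auxin genes, counted on the average over days, where 32.0% of all genes were called. Of 6 receptor genes tested, 0 were higher and 2 lower, and of 5 TOPLESS corepressor genes, 0 were higher and 1 lower, none by 0.5 or more in log2. Of 7 tested auxin synthesis genes, 5 were higher and 0 lower. YUC5, a flavin monooxygenase of auxin synthesis, had 3.07 ± 1.51 scaled FPKM in val1 and 0.347 ± 0.249 in wild type at day 12, and its average log2 difference was 1.06 (SE 0.11, adjusted p = 1.59e-09). Of 5 GH3 genes, which encode enzymes that conjugate auxin, 2 were higher and 0 lower. Of 28 tested SAUR genes, a family of early auxin-induced genes, 8 were higher and 2 lower. SAUR18 had 27.8 ± 9.7 in val1 (n = 3) and 3.55 ± 1.71 in wild type (n = 2) at day 17, with an average difference of 1.22 (SE 0.11, adjusted p = 3.53e-11). SAUR79 differed by 0.72 (SE 0.21, adjusted p = 0.00909) and SAUR70 by 0.61 (SE 0.07, adjusted p = 3.67e-08). Of 9 further ARF genes, ARF11 alone was tested. It was lower, with 1.49 ± 0.40 in val1 and 5.43 ± 0.88 in wild type at day 13 and an average difference of -0.52 (SE 0.10, adjusted p = 6.53e-05).

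Promoter motifs were counted in all members and all genes. In windows from 250 bases before to 50 after the start, the RY letters CATGCA were found on either strand in 4 of 43 members and in 9.72% of 27444 protein-coding genes. The auxin response element TGTCTC was found in 13 of 43 members, 12 of them Aux/IAA genes, and in 14.2% of all genes. From 1000 bases before to 50 after the start, RY was found in 21 of 43 members and 33.1% of all genes, and TGTCTC in 24 of 43 and 41.9%. No RY match overlapped a TGTCTC match in the members' windows. IAA16, a relative of IAA7 and IAA17 that was lower in val1, held 1 RY match in the longer window and 1 within its gene. IAA7 held 3 within its gene, including a match in an exon at chr3:8196330-8196359. The shorter IAA7 window held 2 adjoining RY matches in its 5′ UTR, at chr3:8194618-8194647 on the plus strand. They are shown because IAA7 and IAA17 are the relatives that were higher in val1.
IAA7 5′ UTR: agcaaaagaCATGCACATGCAattacacga

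The authors' deposited table of their own daily comparisons, which lists transcripts past their threshold, holds 25 transcripts of 16 members. For the IAA17 transcript it gives log2 differences from 1.47 at day 7 to 9.29 at day 15. The adjusted p-value of 3.17e-17 is that of the authors' test over all days. For the IAA30 transcript it gives 2.19 at day 17, and an adjusted p-value of 1.57e-10 over all days rather than for that day. IAA13 has 3 transcripts in the authors' deposited table, with differences of -1.21 to -1.34 at day 13.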

How the data were processed

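RNA-seq of dissected embryos was deposited as tables of assembled transcripts. The submitters' processing notes name TAIR10, TopHat2 and StringTie, and how the technical replicates were combined is not given in the sources used here. The authors' FPKM values, per the file headers, were summed per locus over transcripts that match the reference or share a junction with it (33544 genes). A second deposited sheet, headed as counts, holds fractional values and was read as a signal of unstated normalization, with 53.1 to 76.4% of its values at 0. It was used as an alternative. The authors' deposited comparison table gives log2 differences per day and p-values over days, by a tool not given in the sources used here.

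A divisor per library came from log ratios with the extremes trimmed off (an unweighted TMM). The log2(scaled FPKM + 0.5) values went into limma (version 3.58.1, R version 4.3.3) with a mean for each of 14 groups, no replicate block, 27 residual degrees of freedom, and Benjamini-Hochberg adjustment over the 18389 genes that reached 1 FPKM in 2 or more libraries. Calls were made at 0.05. Same-numbered libraries of a day mostly varied together, and this fit does not use that. The fit was tested on simulated data with independent noise in each library, so that test does not bear on such joint variation. It started from scaled values and did not cover the scaling. Values worth under 20 reads came out as whole multiples of a twelfth of a read (100.0% within 0.02 of a step; 12 steps a read), and the depth in reads is an estimate from that step. Whether the libraries kept strand is not given in the sources used here. Of 41 libraries, 7 carry no usable replicate number: 3 of val1 day 17 and 4 at days 8 and 12. The 4 are named as replacements of a replicate 1, per the file headers, and stand beside a library of that name. They correlated with it at 0.979 to 0.988 and with replicate 3 at 0.974 to 0.988, and were counted as separate libraries, although the labels do not say which sample each one is. The val1 day 17 column names spell, without punctuation, like the descriptions of val1 day 7 samples, which have columns of their own, so their numbers were left unused.

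Members, lists and tests were chosen with earlier results of these data known. Library values are given for members called with a log2 difference of at least 1 in size, at least at the day of the largest called difference, and group means for other members called. For development, the 3 largest called rises and falls per family in wild type are named. Members under the filter, tandem neighbours and the 3 loci on either side of IAA17 are always given. Genes of the other auxin lists are named when called with an average log2 difference of at least 0.5 in size. Values shown beyond this were chosen after they were seen. Sequences are from the TAIR10.1 genome and its RefSeq annotation, whereas the authors' build is TAIR10. The upstream sequence of 1 member is not reported here. Alternatives changed the scaling, pseudocount, filter, transcript class, quantification, replicate block and test, and left out each library in turn.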

Additional observations from a re-analysis of the deposited data

Results flagged for a closer look

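The change with age differed between val1 and wild type for 11 values, each by a test of the difference itself (limma, adjusted p under 0.05 over all genes). From day 7 to day 12 the log2 change of IAA17 was more positive in val1 by 1.80. From day 12 to day 17 the change was more positive in val1 by 2.65 for IAA34, 2.49 for IAA32, 1.68 for IAA7, 1.53 for IAA8, 1.47 for IAA20, 1.43 for IAA30, 1.05 for IAA16, 0.95 for IAA2, 0.83 for ARF16 and 0.63 for ARF9.

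Of the day 12 to 17 values, 4 lost their call when a library was left out. IAA2 did so without any of 7 libraries (0.61 to 0.95, adjusted p = 0.0626 to 0.332), and IAA32 without any of 9 (2.25 to 2.56, adjusted p = 0.0507 to 0.120). ARF9 did so without any of 5 (0.56 to 0.66, adjusted p = 0.0526 to 0.0929), and IAA16 without either wild-type day 17 replicate (1.05, adjusted p = 0.0510 and 0.0522).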

How the results depend on the processing

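Of 59 values of named members, 59 kept direction and call under median ratio scaling, under a filter of at least 6 libraries and with transcripts of class = alone, 57 with pseudocount 1 and with no filter, 56 with pseudocount 0.1 and 55 with limma-voom on recovered reads. Of the 45 that could be fitted with the replicate block in the 34 numbered libraries, 42 did. The averages of IAA7 (0.28), IAA8 (0.14) and IAA20 (0.12) did not, with the block or without it, and val1 at day 17 is not in those libraries. Without scaling 47 did, 10 lost the call and 2 reversed, the day 7 to 12 changes of ARF16 (-0.20) and ARF10 (-0.19) in wild type. In the second deposited quantification 37 did, 20 lost the call and 2 reversed, the day 12 to 17 differences of IAA7 (-1.55) and ARF9 (-1.26). The cause was not tested. Leaving out each library in turn ended the call of 6 of the 59 at least once.

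The count of members called at day 7 was 1 and became 2 without scaling, with pseudocount 0.1, in the second quantification, with limma-voom, with the replicate block, with the 34 numbered libraries alone and with the replicate block within each day. The last 2 settings were chosen after seeing the data. In the second quantification the counts were 0 at day 8, 2 at day 10, 5 at day 12, 7 at day 15, 5 at day 17, 17 for the wild-type change from day 7 to 12, 0 for its difference between genotypes, 3 for the day 12 to 17 difference and 3 for the interaction. Without scaling they were 3 at day 10 and 3 for the day 12 to 17 difference. The day 8 count was 1 with pseudocount 0.1, and the day 7 to 12 difference had 0 with pseudocount 0.1 and 2 with pseudocount 1. Leaving out each library gave 1 to 2 at day 7, 1 to 3 at day 8, 0 to 3 for the day 7 to 12 difference and 6 to 10 for the day 12 to 17 difference.

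Same-numbered libraries of a day had deviations correlated at 0.075 to 0.604 in 16 pairs, median 0.442, against -0.653 to 0.351, median -0.208, in 28 pairs of other numbers, and 31 of 32 libraries correlated best with their own number. Because 1 pair was under 0.1 and no label ties a number to a shared batch, the main fit has no block. The correlations nonetheless show that same-numbered libraries mostly varied together, and the SE and calls of the main fit ignore this. With the replicate block the interaction called 7 members, against 4 in the 34 numbered libraries alone. With the replicate block within each day it called 18, and day 15 called 22 (15 higher and 7 lower), day 13 7 higher and 6 lower, and the average 10 higher and 10 lower, so members called on no day are so in the fit without pairs. Depth limits the members whose group means lie near 0.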
